A study of Mus musculus with 2 samples.

Results

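Eomes or Gzmk positive T nuclei are the nuclei in which RNA of Eomes or of Gzmk was detected among CD4+ effector T cells of the mouse gut. They were chosen by raw UMI counts, where a UMI is a molecular tag that marks 1 RNA molecule. A nucleus had to hold 500 to 4000 UMIs, at least 1 UMI of Cd3d, Cd3e or Cd3g, which encode CD3 chains of the T-cell receptor, and at least 1 UMI of Eomes or Gzmk. Nuclei with a UMI of Foxp3, of Zbtb16 or of any of Kit, Il1r1, Ncr1 and Arg1 were left out, as these genes mark regulatory T cells, innate-like T cells and innate lymphoid cells. The rule found 89 control and 36 knockout nuclei, 125 of 6614 barcodes in all. The comparison is with the other eligible nuclei, which met the same conditions without a UMI of Eomes or Gzmk, 1422 control and 596 knockout nuclei.

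Mice labelled Zfp362flox/flox, without Cre, gave the control library, whose title has Zfp362+/+ instead. Mice labelled CD4creZfp362flox/flox gave the knockout library, and there Cre is driven by Cd4 regulatory sequence, so it acts across the T-cell lineage. Mice were 26 to 33 weeks old, and cells of colon and small intestine were combined before CD8a, CD11c, CD45R and F4/80 negative cells with CD4 and CD44 but without CD62L were sorted. The number of mice named, 7, is not tied to a genotype in the design text, and each genotype has 1 library, so there is no replicate and no test across animals. Intervals in parentheses are 95% intervals for counting error within a library, and they are too narrow where a few nuclei hold most of the UMIs. Zfp362 RNA gave 4 UMIs in control and 1 in knockout members. The deleted exons are not named in the labels, so these counts do not check the genotype.

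Eomes and T-bet, the product of Tbx21, are T-box transcription factors of cytotoxic lymphocytes and of type 1 helper T cells. Eomes is best known from memory CD8 T cells and natural killer cells, and CD4 T cells with Eomes and granzymes have been described as cytotoxic or type 1 regulatory cells. Gzmk encodes granzyme K, a serine protease of cytotoxic granules. Ccl5 encodes a chemokine that such cells secrete.

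Promoter sequences are shown for Gzmk and Nkg7, whose windows held the letters marked in capitals. Accessible chromatin around both genes, and around others, is compared below. Nkg7 encodes a cytotoxic granule membrane protein. Each sequence is the 250 bases before the RefSeq transcription start on GRCm38.p6, printed 5′ to 3′ on the gene's strand, Gzmk from chr13:113180966-113181215 (minus strand) and Nkg7 from chr7:43436888-43437137 (plus strand). Entries were found for Gzmk, Nkg7, Eomes and Tbx21, and none for Ccl5.
Gzmk: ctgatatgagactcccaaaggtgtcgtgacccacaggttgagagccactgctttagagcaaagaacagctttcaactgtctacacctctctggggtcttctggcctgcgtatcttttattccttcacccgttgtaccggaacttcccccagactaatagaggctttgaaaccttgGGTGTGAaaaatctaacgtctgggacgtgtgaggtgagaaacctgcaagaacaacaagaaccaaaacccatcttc
Nkg7: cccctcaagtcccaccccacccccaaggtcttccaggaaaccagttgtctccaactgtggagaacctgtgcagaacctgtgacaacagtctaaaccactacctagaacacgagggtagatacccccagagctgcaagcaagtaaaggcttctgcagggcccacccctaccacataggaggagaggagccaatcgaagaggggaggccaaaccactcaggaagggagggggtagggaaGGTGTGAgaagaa
Capitals mark GGTGTGA, a core of T-box binding sequences, which was searched on both strands (TCACACC on the other). Gzmk held 1 match at -75 to -69 from the start and Nkg7 held 1 at -13 to -7. The windows of Eomes and Tbx21 held none and are not printed. The same letters were found in 3.33% of 32851 RefSeq promoter windows of this length, and a match is a description of the letters, not a bound site.

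Members were slightly shallower than the other eligible nuclei. The median was 1764 (control) and 1965.5 (knockout) UMIs in members, and 1920 and 2077.5 in the others. The members' UMIs summed to 173618 and 74249, so a count of 0 in them allows up to 17.3 and 40.4 CPM, the UMIs scaled to a library sum of 1000000. Mitochondrial genes held 0.398% and 0.202% of the members' UMIs and 0.405% and 0.221% of the others'. Libraries shared 11 barcodes, none of them a member.

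Members were 5.89% (4.76% to 7.20%) of the 1511 eligible nuclei of the control library and 5.70% (4.02% to 7.80%) of the 632 of the knockout library, and the intervals overlapped. The 2 rule genes made this share up differently. Eomes was detected in 40 control nuclei, 2.65% (1.90% to 3.59%) of those eligible, and in 6 knockout nuclei, 0.949% (0.349% to 2.05%). Gzmk was detected in 69 control nuclei, 4.57% (3.57% to 5.74%), and in 34 knockout nuclei, 5.38% (3.75% to 7.44%). Members of the control library were thus 20 nuclei with Eomes alone, 20 with both genes and 49 with Gzmk alone. In the knockout library these were 2, 4 and 30 nuclei. The Eomes shares of the libraries had intervals that overlapped in a narrow range, and those of Gzmk overlapped widely. These values chose the members and are given without a test.

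**Figure D1:**
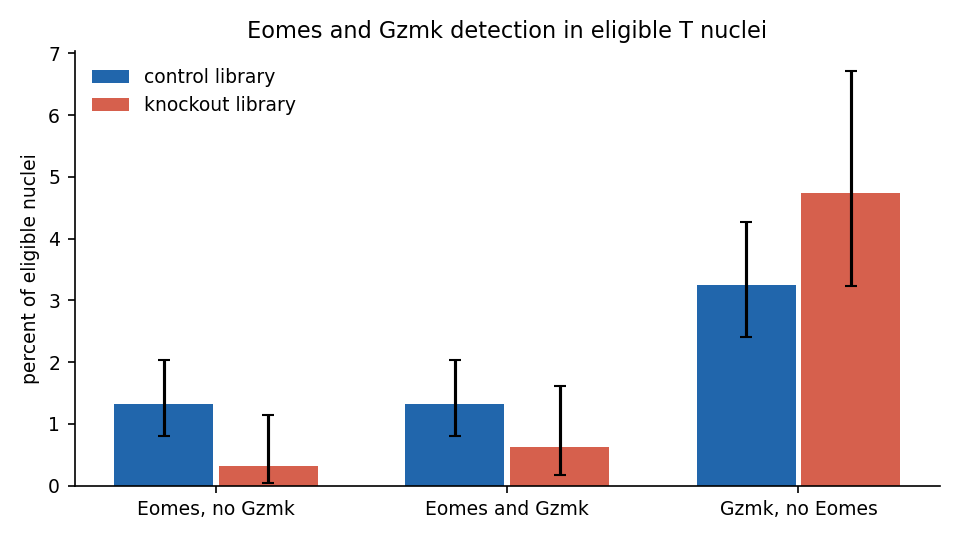
Percent of eligible nuclei (y axis) with Eomes only, both genes or Gzmk only (x axis) in the control and knockout libraries. Bars are shares and error bars exact Clopper-Pearson 95% intervals. Gzmk without Eomes was 3.24% (control) and 4.75% (knockout), and Eomes without Gzmk was 1.32% and 0.316%.

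Gzmk was found in 20 of the 40 control and 4 of the 6 knockout nuclei with Eomes. Among eligible nuclei without Eomes it was found in 3.33% and 4.79%, and since both genes chose the members these shares are a description. Free RNA in the droplets was gauged in nuclei with a marker of group 3 innate lymphoid cells and no Cd3 UMI, which should lack both genes. There, 2 of 948 control nuclei (0.211%) and 3 of 527 knockout nuclei (0.569%) held a UMI of Eomes or Gzmk, at median depths of 1972 and 2014 UMIs. Most members sat at the edge of the rule, as 49 of the 89 control and 28 of the 36 knockout members held exactly 1 UMI of the 2 genes. Control nuclei with exactly 1 such UMI had Ccl5 at 2649 CPM and those with 3 or more at 5005 CPM, while the nuclei just outside, with none, had 381 CPM. In the 18 control nuclei with 2 such UMIs it was at 2905 CPM. In the knockout library the levels were 1104 CPM with 1 UMI, 7055 with 2 (3 nuclei), 3031 with 3 or more (5 nuclei) and 381 with none, so they did not rise in order.

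The sort gate and the label were checked against other cell types. Cd8a and Cd8b1 were at 0 UMIs in members of both libraries. In the others Cd8a was at 0 as well, and Cd8b1 at 2.08 (control) and 4.56 CPM (knockout). These are under the 17.3 and 40.4 CPM that a count of 0 allows in members, so these zeros do not set members apart. Of 5 gamma-delta T-cell markers, Trdc and Sox13 were at 0 in both, and the list gave 9 UMIs in control members (51.8 CPM against 35.0 in the others) and 1 UMI in knockout members (13.5 against 48.6). Innate lymphoid markers gave 179 CPM in control members against 116, and 53.9 against 120 in the knockout library, with Kit, Il1r1 and Arg1 at 0 by the rule. Of the 31 UMIs in control members, 22 were of Il22, and 86.4% of those lay in 1 nucleus. Plasma cell markers gave 179 against 123 CPM and 175 against 298, with Mzb1, Sdc1 and Iglc2 at 0 in members of both libraries. In control members 30 of the 31 UMIs were of Igkc, 53.3% of them in 1 nucleus. The part of these cells in the results was not tested. Of 7 markers of natural killer cells, 6 were at 0 in the control members, with 8 UMIs of Fcer1g (46.1 CPM for the list against 14.2 in the others), and 7 were at 0 in the knockout members. Ncr1 is at 0 by the rule, and Klra7 and Klra8 were at 0 in the others of both libraries too. The 6 B cell markers gave 1 UMI and 0 UMIs, and 5 mast cell markers gave 0 in both. Those 2 lists were also under the members' limits in the others. The 8 myeloid or dendritic markers gave 57.6 CPM in control members against 142, and 53.9 against 221 in the knockout library. The 8 epithelial markers gave 28.8 against 25.6 and 13.5 against 28.1 CPM. The 6 stromal or endothelial markers gave 167 against 154 and 215 against 189 CPM, and all UMIs of that list in members were of Pecam1. The 4 markers named for these nuclei did not all set them apart. Eomes and Gzmk were required, Ccl5 was higher, and Tbx21 was not: it gave 86.4 CPM in control members against 114 in the others (log2 ratio -0.35, -1.25 to 0.34) and 121 against 112 in the knockout library (0.19, -1.04 to 1.08).

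Few genes separated members from the other eligible nuclei by 2-fold in both libraries. Of 2395 genes tested, which had at least 5 UMIs expected in the members of each library and 20 over both, 6 were at least 2-fold higher in members of both libraries (0.251%). Among them were Ccl5, Nkg7, Fasl, Lyst and Serpinb9. At least 2-fold lower in both were 28 genes (1.17%), among them Gata3, Il1rl1, Il2ra, Tnfrsf4 and Btla. In the control library alone 16 genes were 2-fold higher (0.668%) and 86 lower (3.59%), and in the smaller knockout library 62 (2.59%) and 148 (6.18%). At any size, 31.4% of the genes were higher in both libraries and 27% lower in both. Against all other Cd3-positive nuclei, 1941 and 846, 7 genes were higher and 62 lower, of which 5 and 25 were the same genes. Log2 ratios are of CPM in members over CPM in the other eligible nuclei, with 0.5 UMI added to each count.

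Ccl5 had the highest ratio of members over the other eligible nuclei among the tested genes of the lists. It gave 572 UMIs in control members, 3295 CPM, against 381 CPM in the other eligible nuclei. The log2 ratio was 3.11 (2.97 to 3.26). In the knockout library it gave 147 UMIs, 1980 CPM, against 381 CPM, a log2 ratio of 2.38 (2.10 to 2.65). A UMI of Ccl5 was found in 69.7% of control and 63.9% of knockout members, against 24.5% and 28.0% of the others and 4.43% and 6.26% of the lymphoid nuclei that gauge free RNA. With each nucleus thinned to 500 UMIs, the shares were 57.3% and 41.7% in members against 12.9% and 10.2% in the others. A single knockout nucleus held 21.1% of the members' Ccl5 UMIs, and without it the log2 ratio was 2.09 (1.78 to 2.38).

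Nkg7 was higher as well. It gave 559 CPM in control members against 178 in the others (log2 ratio 1.65, 1.32 to 1.96), and 566 against 150 in the knockout library (1.93, 1.40 to 2.40). A UMI of Nkg7 was found in 50.6% of control members against 21.2% of the others, and in 2.11% of the lymphoid nuclei that gauge free RNA. Members thus carried the granule gene and the chemokine at higher levels in both libraries.

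Fasl, Lyst and Serpinb9 rested on fewer UMIs. Fasl, the ligand of the death receptor Fas, gave 52 and 16 UMIs in control and knockout members and log2 ratios of 1.23 (0.77 to 1.64) and 1.02 (0.13 to 1.73). Lyst, a regulator of lysosome-related organelles such as lytic granules, gave 39 and 15 UMIs and log2 ratios of 1.37 (0.83 to 1.84) and 1.03 (0.11 to 1.76). Serpinb9, an inhibitor of granzyme B, gave 42 and 23 UMIs and log2 ratios of 1.02 (0.51 to 1.47) and 1.36 (0.63 to 1.97). Without the nucleus that held most of its UMIs, the knockout ratio of Fasl was 0.65 (-0.39 to 1.45) and that of Lyst 0.75 (-0.29 to 1.55), and the control ratio of Serpinb9 was 0.78 (0.22 to 1.27), each under 2-fold. After thinning to 500 UMIs, Fasl was found in 12.4% of control members against 7.45% of the others, and in 2.78% against 5.37% in the knockout library.

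**Figure D2:**
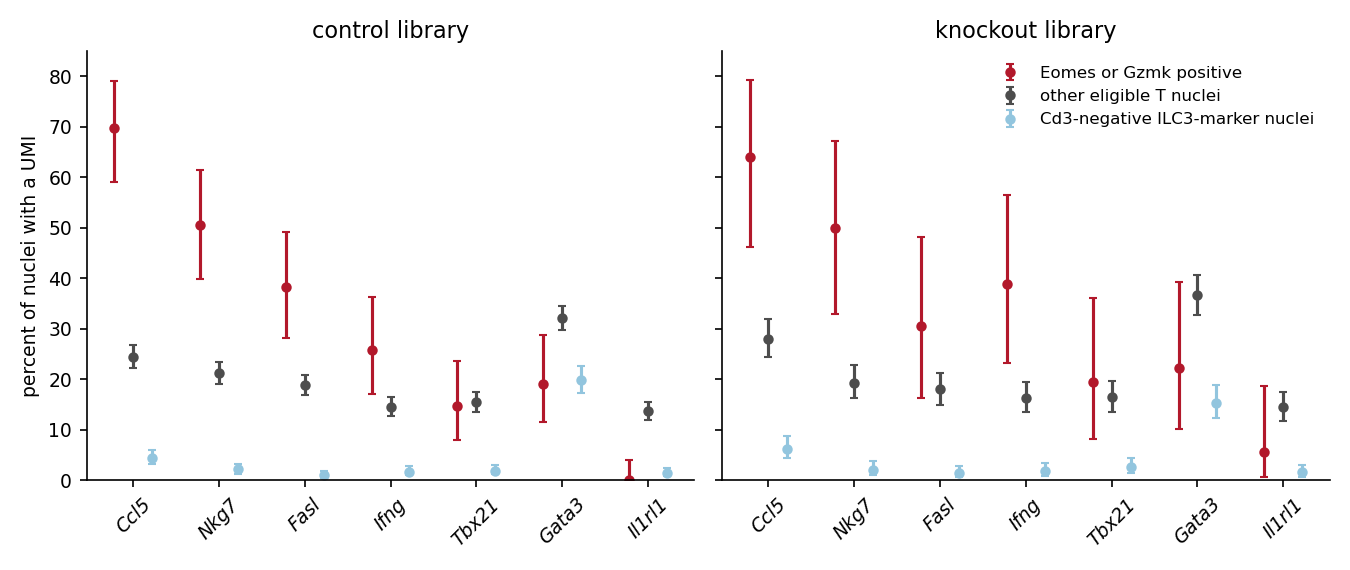
Percent of nuclei with at least 1 UMI (y axis) of 7 genes (x axis) in members, other eligible T nuclei and Cd3-negative nuclei with an innate lymphoid marker, for each library. Points are shares and bars exact Clopper-Pearson 95% intervals. Ccl5 was found in 69.7% and 63.9% of members, while the Tbx21 shares of members and the other eligible nuclei overlapped.

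Neither Gzma nor Gzmb was 2-fold higher in members of both libraries. Gzma, encoding granzyme A, gave 369 CPM in control members against 350 in the others (log2 ratio 0.09, -0.31 to 0.44) and 404 against 429 in the knockout library (-0.07, -0.67 to 0.44). Without the knockout nucleus that held 36.7% of its UMIs, that ratio was -0.69 (-1.47 to -0.07). Gzmb, encoding granzyme B, gave 225 against 238 CPM in the control (-0.07, -0.59 to 0.38) and 687 against 233 in the knockout library (1.57, 1.10 to 1.99). A single knockout nucleus held 33.3% of those Gzmb UMIs, and without it the log2 ratio was 1.03 (0.45 to 1.52). Prf1, the pore-forming perforin, gave 4 UMIs in control members and none in knockout members, so its level could not be read at this depth. Of 16 cytotoxic effector genes, 7 were tested, 3 of these were at least 2-fold higher in both libraries and none was lower. Of all genes tested, 0.251% were higher and 1.17% lower by that measure. The median log2 ratio of the 7 was 0.60 (control) and 1.02 (knockout), against 0.03 and 0.02 over all genes tested.

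No tested type 1 helper gene passed 2-fold in both libraries, Ifng included. Ifng, the interferon gamma gene, gave 276 CPM in control members against 171 (log2 ratio 0.71, 0.24 to 1.12) and 296 against 150 in the knockout library (1.01, 0.27 to 1.62). Without the nucleus with most Ifng UMIs the ratios were 0.50 (-0.02 to 0.94) and 0.60 (-0.28 to 1.29). Stat4, which signals from the IL-12 receptor, had log2 ratios of 0.00 (-0.14 to 0.13) and -0.06 (-0.26 to 0.14). Il12rb2, a chain of that receptor, had 0.26 (-0.03 to 0.53) and 0.19 (-0.23 to 0.56). Of 15 type 1 helper genes, 11 were tested, with median log2 ratios of 0.07 and 0.22. Of 3 chemokine ligands tested, Ccl5 alone passed 2-fold in both libraries, beside 0.251% of all genes tested that were higher. Cxcl10, an interferon-induced chemokine, had log2 ratios of -1.85 (-3.16 to -0.95) and -0.24 (-1.32 to 0.57). Xcl1, the third chemokine ligand tested, had log2 ratios of 0.61 (0.19 to 1.00) and 0.31 (-0.36 to 0.87). Without the nucleus that held 40% of its UMIs, the knockout ratio of Xcl1 was -0.37 (-1.27 to 0.33). Of 9 tested genes of the T-cell receptor and its co-receptors, 6 were higher in both libraries at any size and none lower, against 31.4% and 27% of all genes tested. Their median log2 ratios were 0.32 and 0.34, against 0.03 and 0.02 over all genes, and none passed 2-fold in both libraries.

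Both tested type 2 helper genes were lower in members, as were Il2ra and Tnfrsf4 of the regulatory T-cell list and the inhibitory receptor gene Btla. Gata3, the transcription factor of type 2 helper cells, gave 144 CPM in control members against 398 (log2 ratio -1.44, -2.10 to -0.90) and 135 against 433 in the knockout library (-1.62, -2.75 to -0.80). Il1rl1, which encodes the IL-33 receptor ST2, had no UMI in the 89 control members against 221 CPM in the others, which makes it at least 12.8-fold lower against a limit of 3 counts over the members. In the knockout members it had 5 UMIs, 67.3 against 224 CPM (-1.60, -3.37 to -0.50), and 4 of the 5 lay in 1 nucleus, without which the ratio was -3.42 (-9.31 to -1.51). Il2ra, the alpha chain of the IL-2 receptor, had log2 ratios of -1.44 (-2.52 to -0.66) and -2.03 (-4.54 to -0.69). Tnfrsf4, the costimulatory receptor OX40, had -1.94 (-2.58 to -1.41) and -1.16 (-2.02 to -0.50). Btla, an inhibitory receptor, had -1.08 (-2.15 to -0.28) and -1.24 (-3.01 to -0.13).

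By list, both tested type 2 helper genes of 9, Gata3 and Il1rl1, were at least 2-fold lower in both libraries. Of 10 regulatory T-cell genes, 6 were tested and 2 were lower by that measure, and Foxp3 is 0 by the rule. Ctla4, an inhibitory receptor, had log2 ratios of -1.02 (-1.29 to -0.77, control) and -0.04 (-0.34 to 0.23, knockout). Of 20 genes of inhibitory receptors and type 1 regulatory cells, 11 were tested, 1 was lower and none was higher. Il10 had log2 ratios of -1.63 (-2.60 to -0.90) and -0.68 (-1.82 to 0.15), and Lag3 had no UMI in members of either library. None passed in either direction among 9 tested memory genes, 15 effector transcription factors, 5 Th17 genes, 5 follicular helper genes, 11 activation genes and 1 natural killer receptor. Over the 14 lists, 96 of 185 genes were tested, of which 5 were at least 2-fold higher in both libraries and 5 lower. Over all 2395 genes tested the shares were 0.251% higher and 1.17% lower, which also stand beside the counts of each list.

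Of the genes ranked without regard to the lists, those next in size differed by less than 2-fold in at least 1 library. Tspo, a mitochondrial outer membrane protein, had log2 ratios of 0.94 and 1.05, and Ms4a4b, a membrane protein of T cells, 0.85 and 0.83. Gimap3 and Gimap8, GTPases of lymphocyte survival, had 0.86 and 0.75 and 0.78 and 0.86. Wipf1, a partner of the actin regulator WASP, had 0.82 and 1.21, Rptor, a subunit of the mTOR complex, 1.01 and 0.80, and Ubr2, a ubiquitin ligase, 1.14 and 0.73. Hat1, Rab11b, Thy1 and Eif3k completed the 15 highest, with the smaller of the 2 ratios between 0.70 and 0.77. None of these 11 passed 2-fold in both libraries. At the low end, Pard3, a cell polarity gene, had no UMI in members of either library against 104 and 105 CPM in the others, at least 5.99-fold and 2.60-fold lower. Penk, the precursor of enkephalin peptides, gave 2 UMIs and 0 UMIs against 83.8 and 88.2 CPM. Cd74, the invariant chain of antigen presentation, gave 57.6 against 121 CPM in the control and 40.4 against 172 in the knockout library. Nckap5, Bmpr2, Neb, Arhgap17 and Phlpp1 completed the 10 lowest with Gata3 and Tnfrsf4. Both rankings left out genes with over 20% of the members' UMIs in 1 nucleus of a library, except where those UMIs were few. Il1rl1 and Il2ra were left out of the lowest this way, and Ccl5 and Fasl of the highest.

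**Figure D3:**
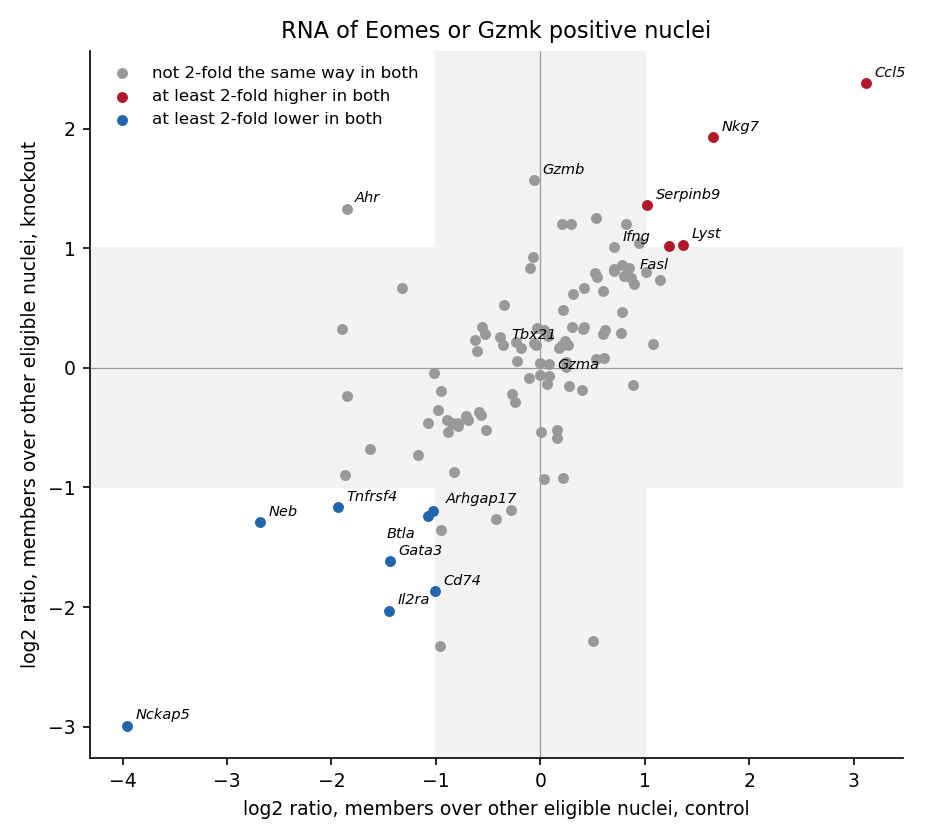
Log2 ratio of members over other eligible nuclei in the control library (x axis) and the knockout library (y axis) for 111 tested genes of the lists and rankings. Points are genes, grey bands are changes under 2-fold, and 4 genes without a member UMI in a library are not plotted. Ccl5 and Nkg7 lie farthest to the upper right, and Nckap5, Neb, Gata3 and Il2ra to the lower left.

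Members were also set beside the other eligible nuclei that held a UMI of Tbx21 or Ifng, 354 control and 165 knockout nuclei, a group chosen after values had been seen. Those nuclei had Ccl5 at 766 and 635 CPM, between the other eligible nuclei and the members. The log2 ratio of members over them was 2.10 (control) and 1.64 (knockout) for Ccl5. For Nkg7 it was 0.54 and 0.99, for Fasl 0.41 and 0.37, for Lyst 0.80 and 0.23, and for Serpinb9 0.23 and 0.88, all under 2-fold. Gata3 was at 217 and 269 CPM in these nuclei, between the members and the other eligible nuclei. Il1rl1 was at 58.5 and 46.1 CPM, under the other eligible nuclei in both libraries. Control members had no UMI of Il1rl1, and knockout members had 67.3 CPM.

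Members with Eomes differed from those with Gzmk alone, which was read in the control library, as the knockout library had 6 nuclei with Eomes. The 40 nuclei with Eomes had Ccl5 at 4487 CPM and the 49 with Gzmk alone at 2371 CPM (log2 ratio 0.92, 0.68 to 1.17). Among those with Eomes, Ccl5 was at 3986 CPM in nuclei without Gzmk and at 4944 in nuclei with both, where 19 of 20 held a UMI of it. Il12rb2 gave 119 CPM with Eomes and 1083 with Gzmk alone (-3.12, -4.36 to -2.21), and Gzma gave 66.0 and 603 CPM (-3.07, -4.87 to -1.89). Nuclei with Eomes were thus higher in Ccl5 and lower in Gzma and in the IL-12 receptor chain. Gzmb gave 119 and 307 CPM (-1.31, -2.63 to -0.26) and Tnfrsf4 39.6 and 235 CPM (-2.38, -4.95 to -0.84). Cd40lg, the CD40 ligand of helper cells, had no UMI with Eomes and 46 UMIs with Gzmk alone, at least 11.9-fold lower against a limit of 3 counts over the nuclei with Eomes.

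Other genes ran higher in the nuclei with Eomes. Myb, a transcription factor of stem-like T cells, gave 238 CPM with Eomes and 20.4 with Gzmk alone (log2 ratio 3.26, 1.48 to 6.69), from 18 and 2 UMIs. Jun, a subunit of AP-1, gave 647 and 153 CPM (2.04, 1.22 to 3.02), and Runx3, a factor of cytotoxic cells, 330 and 143 CPM (1.18, 0.21 to 2.26). Nkg7 and Ifng did not separate the 2 kinds beyond counting error, at log2 ratios of 0.16 (-0.45 to 0.76) and 0.49 (-0.39 to 1.37). Over all 1887 genes tested here, 6.09% were at least 2-fold higher with Eomes and 7.74% lower, so a difference of that size was common. Of the UMIs in nuclei with Eomes, 66.7% of Il12rb2, 60% of Gzma and 44.4% of Gzmb lay in 1 nucleus each, as did 46.7% of the Jun UMIs in nuclei with Gzmk alone. The 11 genes named were looked at after their values had been seen.

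**Figure D4:**
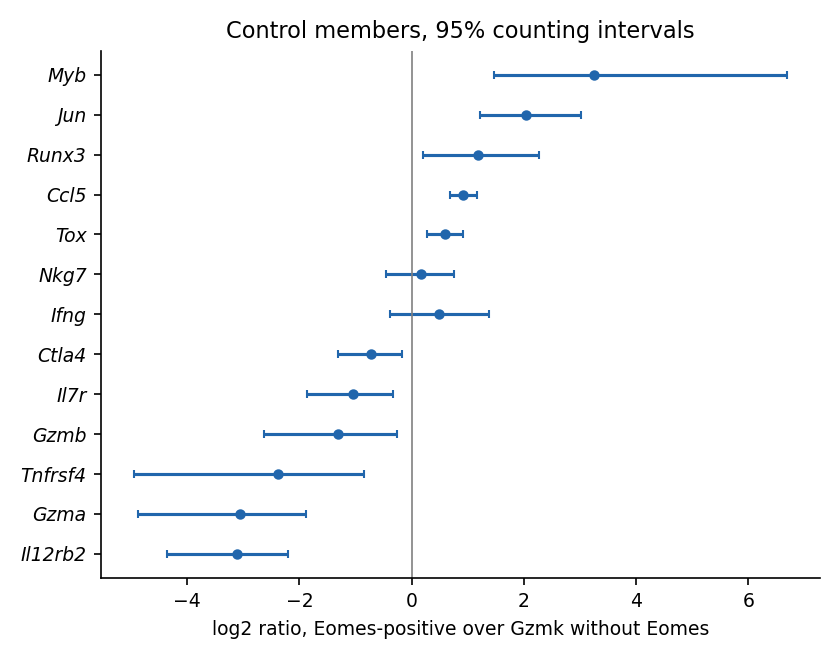
Log2 ratio of nuclei with Eomes (40) over nuclei with Gzmk alone (49) in the control library (x axis) for 13 genes (y axis). Points are ratios and bars exact conditional 95% intervals. Il12rb2, Gzma and Tnfrsf4 lie to the left of 0 and Myb, Jun and Ccl5 to the right, while the bars of Nkg7 and Ifng cross 0.

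Knockout and control members were then compared directly. Of 2528 genes tested, 116 were at least 2-fold higher in the knockout members (4.59%) and 205 lower (8.11%), without any replicate to say what spread 2 libraries of 1 genotype would show. Eomes was at 369 CPM in control and 162 in knockout members, and Gzmk at 628 and 620 CPM, both given as rule genes. Ccl5 was at 3295 and 1980 CPM (log2 ratio -0.73, -1.01 to -0.47). Among nuclei with Gzmk alone, which leaves out those with Eomes, Ccl5 was at 2371 and 1876 CPM (-0.34, -0.67 to -0.01). Nkg7, Ifng and Gzma had intervals that included 0, with log2 ratios of 0.03, 0.12 and 0.14.

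Of 94 list genes tested between the members, 8 were at least 2-fold higher in the knockout library and 9 lower, beside 4.59% and 8.11% of all genes. The intervals of all 8 and of 6 of the 9 excluded 0. The 9 lower genes were Bcl6, Pdcd1 and Sh2d1a of the follicular helper list, Klf2, Lef1 and Myb of the memory list, Entpd1, Il22 and Slamf7. Nuclei with Eomes were 44.9% of control and 16.7% of knockout members, and the part of this in the differences was not tested. Among nuclei with Gzmk alone, Bcl6, Pdcd1, Slamf7 and Il22 stayed at least 2-fold lower, as were 6.7% of 1687 genes. The intervals of Bcl6 and Slamf7 included 0 there. Klf2 was at -0.48 (-1.94 to 0.74), and Myb, Lef1, Sh2d1a and Entpd1 had too few UMIs to be tested. Over all members, Sh2d1a, which encodes the adaptor SAP, was at 207 and 67.3 CPM (log2 ratio -1.5, -3.33 to -0.27). Lef1, a factor of naive and memory T cells, was at 173 and 53.9 CPM (-1.54, -3.65 to -0.18), and its ratio in the other eligible nuclei was -0.95. Il22 had 22 UMIs and 1 UMI, with 86.4% of the control UMIs in 1 nucleus. Cd4, the co-receptor gene, was at 374 and 1077 CPM (log2 ratio 1.52, 1.03 to 2.02). In the other eligible nuclei it was at 282 and 857 CPM, so the members' difference was no larger than theirs. Peaks within 50 kb of Cd4 held 467 fragments per 1000000 in control and 1004 in knockout members, and 512 and 925 in the other eligible nuclei. Only the knockout mice carry the CD4cre transgene, so its presence and the loss of Zfp362 cannot be told apart. Gzmb was at 225 and 687 CPM (1.61, 0.98 to 2.25) and Ctla4 at 726 and 1468 CPM (1.02, 0.63 to 1.40), with 33.3% and 27.5% of the knockout UMIs in 1 nucleus each. Among nuclei with Gzmk alone, where 4.51% of 1687 genes were 2-fold higher in the knockout library and 6.7% lower, Gzmb was 1.39 (0.72 to 2.10) and Ctla4 0.92 (0.50 to 1.35) higher on the log2 scale. Tox, a factor of persistent stimulation, was at 1878 and 1077 CPM (-0.79, -1.17 to -0.44), which is under 2-fold.

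Genes were also ranked without regard to the lists, leaving out those with over 20% of UMIs in 1 nucleus of the higher library. The highest in knockout members were then Diaph2, Nsun6, 2610035D17Rik, Airn, Vti1a, Vav3, Tecpr1 and Cd4. Ahr, the aryl hydrocarbon receptor, was left out this way, with 30.4% of its knockout UMIs in 1 nucleus, as was Gzmb. Ahr was at 34.6 and 310 CPM (log2 ratio 3.08, 1.83 to 4.75). Diaph2, a formin that builds actin filaments, was at 115 and 458 CPM (log2 ratio 1.98, 1.15 to 2.87), against -0.06 (-0.27 to 0.14) in the other eligible nuclei. Vav3, a guanine exchange factor of T-cell receptor signalling, was at 144 and 444 CPM (1.62, 0.83 to 2.44). Among the lowest were Dbf4, Dcun1d5, Gxylt1, Slc23a2, Tapbpl, Ncald and Usp12, each with 1 or 2 UMIs in the knockout members and 19 to 30 in the control. Dbf4, which activates a replication kinase, had 23 UMIs and 1 UMI, and its interval ran from -8.66 to -0.68. The knockout values of these genes rest on 1 or 2 UMIs from 36 nuclei.

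Accessible chromatin was read in the same nuclei as fragments in peaks, called separately in each library on mm10, per 1000000 fragments in peaks of the same nuclei. Members held 293433 control and 128465 knockout fragments. Regions were tested where at least 5 fragments were expected in members of each library and 20 over both, 5818 of 73219 regions shared by the libraries. Of the 5818 tested, none was at least 2-fold higher in members of both libraries (0%) and 3 were lower (0.0516%). Regions with fewer fragments were not tested, so these counts say nothing of them. In the control library alone 2 regions were 2-fold higher (0.0344%), and in the knockout library alone 71 (1.22%). The 8 highest regions had log2 ratios of 0.71 to 1.11 and lay nearest to Fam222a, B4galnt1, Mkrn2, Rpn1, Lbh, Dele1, Sec63 and Osgin1, none of them a gene of the lists. The 3 lower regions lay nearest to Tmem260, Uspl1 and Fbxo27, with 2 or 3 fragments in the knockout members.

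Peaks around the rule genes and markers were summed, as single peaks held few fragments. Within 50 kb of Gzmk, members had 87 fragments in the control library, 296 per 1000000 against 131 in the others (log2 ratio 1.19, 0.84 to 1.51). In the knockout library they had 32 fragments, 249 against 127 per 1000000 (0.99, 0.40 to 1.5). The peaks around Gzmk were thus more accessible in members of both libraries, and both intervals lay above 0. Around Eomes, members had 27 and 15 fragments and log2 ratios of 0.64 (-0.01 to 1.20) and 0.93 (0.01 to 1.65). Around Ccl5 the log2 ratios were 0.59 (0.05 to 1.06) and 0.56 (-0.23 to 1.20), and around Tbx21 0.28 (-0.02 to 0.56) and 0.45 (0.01 to 0.83). Ifng peaks, added after values had been seen, had 0.75 (0.39 to 1.09) and 0.68 (0.07 to 1.20). Within this window the intervals of both libraries included 0 around Fasl, Lyst and Serpinb9, and also around Gata3, Il1rl1 and Tnfrsf4, whose RNA was lower. The window mattered. Within 10 kb, Tnfrsf4 had -0.69 (-1.30 to -0.17) and -0.85 (-1.99 to -0.02), below 0 in both libraries. Gata3 had -0.48 (-1.03 to -0.02) in the control library within 10 kb and -0.47 (-0.96 to -0.05) within 100 kb, and knockout ratios of 0.20 (-0.53 to 0.79) and 0.19 (-0.45 to 0.73). In the control library, Lyst had -0.71 (-1.60 to -0.01) within 10 kb and Serpinb9 0.50 (0.09 to 0.87) within 100 kb, with knockout intervals that included 0. Eomes had 1.17 (0.64 to 1.63) and 1.01 (0.16 to 1.70) within 100 kb, above 0 in both libraries, while within 10 kb both intervals included 0. Ccl5 had 1.05 (0.42 to 1.60) and 0.35 (-0.97 to 1.29) within 10 kb. Around Gzmk both libraries lay above 0 in all 3 windows.

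At Gzmk the difference lay in several peaks. The peak over the start of the GENCODE gene, chr13:113225577-113226485, held 11 fragments in 9 control members, 37.5 per 1000000 against 4.57 in the others (log2 ratio 3.06, 1.82 to 4.18). The knockout peak there held 2 fragments in members, 15.6 against 4.96 per 1000000 (1.91, -1.55 to 3.82). An intronic peak at chr13:113183108-113184012 held 21 fragments in control members, 71.6 against 36.1 per 1000000 (1.02, 0.25 to 1.65), and the knockout peak 5 (0.55, -1.24 to 1.72). A peak beyond the gene end, chr13:113169965-113170889, was 1.70 (0.41 to 2.70) higher in control members, and its knockout counterpart 1.86 (0.02 to 3.14). Over the RefSeq start whose promoter is printed above, which lies 44.9 kb into the GENCODE gene, only the knockout library had a peak, with 1 fragment in members and 4 in the others.

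**Figure D5:**
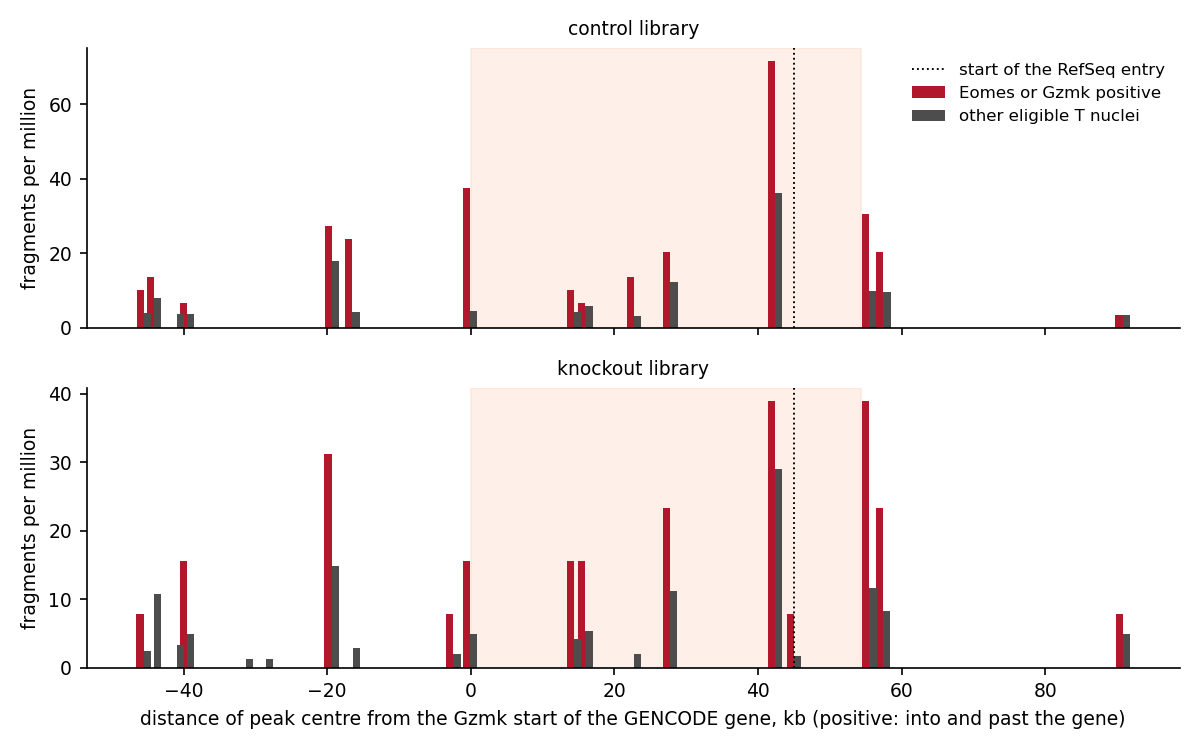
Fragments per 1000000 fragments in peaks (y axis, its range set for each library) in each peak within 50 kb of Gzmk by distance of the peak centre from the start of the GENCODE gene (x axis, kb), for members and other eligible nuclei of each library. The shaded band is the gene, 54.3 kb long, and the dotted line the RefSeq start. Red bars are members and dark bars the others, drawn side by side. At the start of the gene they stand at 37.5 and 4.57 in the control library.

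The printed Nkg7 promoter lies within a peak of each library. The control peak, chr7:43436244-43437163, held 7 fragments in members, 23.9 against 11.1 per 1000000 (log2 ratio 1.19, -0.28 to 2.27). The knockout peak held 9 fragments in 5 members, 70.1 against 16.1 per 1000000 (2.18, 0.89 to 3.19). Over all peaks within 50 kb of Nkg7 the log2 ratios were 0.01 (-0.37 to 0.35) and 0.31 (-0.25 to 0.79), and within 10 kb 0.24 (-0.36 to 0.75) and 0.86 (0.07 to 1.51).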

How the data were processed

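Nuclei were profiled with the 10x Multiome kit, which reads RNA and accessible chromatin of the same nucleus. Per the file headers and the submitters' processing notes, the authors used Cell Ranger ARC 2.0.1 and mm10, and the deposited values are whole-number counts per barcode: UMI counts for 32285 genes, and counts for 83851 control and 85738 knockout peaks. Of the peak counts, 91.7% and 90.7% were even, so fragments were taken as the count halved and rounded up. Doublets were not called, beyond the limit of 4000 UMIs. The members, lists and loci were chosen with earlier results of these data known.

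Counts were summed per library over members and over other eligible nuclei. Sums have exact Poisson, ratios exact conditional and shares Clopper-Pearson 95% intervals (SciPy 1.17.1), for counting error only. Past 2-fold means a log2 ratio of at least 1 in the same direction in both libraries. Named were the rule genes, list and marker genes, Zfp362, the 15 highest and 10 lowest genes against the other nuclei, the 8 highest and 8 lowest between libraries, no nucleus holding over 20% of UMIs, and the 8 highest and 5 lowest peaks. Peak regions overlapped by at least 1 base. Genes inside peaks came from GENCODE vM21 and promoters from RefSeq on GRCm38.p6. Ratios and intervals were tried on simulated counts drawn independently for each gene. UMIs gathered in single nuclei were not simulated, so this does not check the intervals against such nuclei. Alternatives are in the closing section. Some results that the rule names are not reported here.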

Additional observations from a re-analysis of the deposited data

Results flagged for a closer look

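The ratio of members over the other eligible nuclei went in opposite directions in the 2 libraries for 4 named genes whose counting intervals excluded 0 in both. The difference between the libraries was not tested, as each genotype has 1 library. Ahr, the aryl hydrocarbon receptor, had log2 ratios of -1.85 (control) and 1.33 (knockout), from 6 and 23 member UMIs, with 30.4% of the knockout UMIs in 1 nucleus. Diaph2 had -0.88 and 1.16, Tecpr1, a gene of autophagosome maturation, -0.81 and 0.87, and Vav3 -0.55 and 0.70. The last 3 were also among the 8 highest genes of knockout over control members, a ranking from which Ahr was left out because of that nucleus.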

How the results depend on the processing

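With at least 2 UMIs of Eomes and Gzmk, members were 2.65% of control and 1.27% of knockout eligible nuclei, and after thinning to 500 UMIs 2.58% and 2.53%. Nuclei with Eomes, whether or not they held Gzmk, were at 0.927% and 0.316% with at least 2 UMIs of Eomes. After thinning they were at 1.13% in the control library. Nuclei with Gzmk, whether or not they held Eomes, were at 1.65% and 1.11% with at least 2 UMIs of Gzmk. After thinning these were at 1.79% and 2.06%. Genes at least 2-fold higher in members of both libraries numbered 1 after thinning, which leaves 595 genes tested, and 2 with members that have Eomes or with 10 UMIs expected in each library and 40 over both. Lower genes numbered 62 against all other Cd3-positive nuclei, 11 after thinning, 14 with 10 and 40 UMIs, and 14 against nuclei with Tbx21 or Ifng. Of the 6 higher genes, 5 were shared by the calls against all other Cd3-positive nuclei, 5 by those with depth-matched weights, 6 by those with Gzmk-positive members and 2 by those against nuclei with Tbx21 or Ifng. With 2 UMIs of the rule genes, 678 genes were tested and 1 of the 6 was shared, and with Eomes-positive members 434 were tested and 0 shared.

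Between knockout and control members, 39 genes were higher and 48 lower after thinning, 44 and 52 with 40 UMIs over both libraries, 76 and 113 among nuclei with Gzmk alone, and 131 lower with 2 UMIs of the rule genes. Deposited peak counts in place of fragments gave 4 regions higher and 57 lower, with more regions tested, while 2 UMIs of the rule genes or 10 and 40 fragments gave 0 lower.

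Changes of sign were looked for only where a library's ratio was at least 2-fold. In the knockout library Ifng was at -0.052 with 2 UMIs. It was at -0.83 against nuclei with Tbx21 or Ifng, but Ifng helped choose those nuclei, so that value does not check it. Gzmb was at -3.01 with 2 UMIs, from 3 knockout nuclei with 2 and 5 with 3 or more. With Eomes it was at -2.41, from 6 knockout nuclei. All 51 Gzmb UMIs of knockout members lay in nuclei with Gzmk alone, so that ratio rests on the added 0.5 UMI. Against nuclei with Tbx21 or Ifng, the knockout ratio of Neb was 0.55, that of Tnfrsf4 0.10 and that of Il1rl1 0.64. Cd4 of knockout over control members was at -0.078 after the ratio in the other eligible nuclei was taken off. The cause was not tested. Nuclei with Gzmk alone, nuclei with Tbx21 or Ifng as the comparison, and the nucleus with most UMIs left out were chosen after seeing the data. No paired analysis was possible because each genotype has 1 library.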

Other observations

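Some list genes ran higher in members but had too few UMIs expected there to be tested, and a gene that passes only where it is high had to differ, so they are given as values. Ccl4, another chemokine, gave 127 CPM in control members against 38.4 in the other eligible nuclei and 269 against 51.7 in the knockout library. Entpd1, which encodes the ectonucleotidase CD39, gave 173 against 25.6 CPM in the control library from 30 UMIs, and 67.3 against 29.6 in the knockout library from 5. Slamf7, a receptor of cytotoxic cells, gave 184 against 60.3 CPM in the control and 67.3 against 91.2 in the knockout library.

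Above the upper limit of 4000 UMIs, 17 of 125 control nuclei and 7 of 116 knockout nuclei that met the other conditions held a UMI of Eomes or Gzmk. Eomes was found in 5 of the control nuclei and in none of the knockout nuclei. A further 17 control and 8 knockout nuclei in the depth range held either gene without a Cd3 UMI.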
